A study of Mus musculus with 42 samples.

Results

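The strain difference after prefrontal tDCS was examined in the whole blood of 10 of the 42 mice of the series, those whose labels gave an age of 6 months, anodal transcranial direct current stimulation (tDCS) and the prefrontal cortex as the site. The 6 3xTg-AD mice were tdcs7, tdcs2, BN, FE, FF and BO, and the 4 C57BL/6 mice were DT, DS, DR and DU, all named by their labels. tDCS passes a weak constant current through an electrode on the skull, and blood was taken shortly after the last session. The 3xTg-AD mouse carries mutant human transgenes, APP and MAPT among them, whose translation is taken to be restricted to the central nervous system, and its background is a hybrid of C57BL/6 and another inbred strain. The APP and MAPT transgenes of this model are known to be driven by a neuronal Thy1 promoter. The C57BL/6 mice carried no transgene and were bred as a separate colony. No C57BL/6 mouse received sham stimulation at the prefrontal site, so a difference between the strains in general and a difference that appears with prefrontal stimulation cannot be told apart within these 10 mice. Test results are given for genes on the autosomes only.

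Whole blood RNA comes mostly from young red cells, which still hold haemoglobin and haem synthesis transcripts, and from neutrophils, platelets and lymphocytes. Inbred strains of mice differ in sequence, in the number of copies of some gene families and in the proportions of their blood cells. In such bulk samples, fewer cells of a type and less RNA per cell cannot be told apart. Neutrophil granule proteins such as lactoferrin and cathelicidin are transcribed mainly while the cells mature in the bone marrow, and erythroid genes mainly before red cells leave it.

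The study's methods describe the 3xTg-AD mice as male, but 3 of the 6 stimulated 3xTg-AD mice, tdcs2, BN and FE, held 394, 230 and 128 reads of Xist, the RNA of the inactive X chromosome of female cells, and 4, 11 and 14 reads of Y-linked genes. Xist had at most 8 reads, and Y-linked genes had at least 231, in every mouse of the series other than 6 prefrontal 3xTg-AD mice, namely these 3 and 3 sham mice, all 6 with over 100 Xist reads. Results are therefore also given without tdcs2, BN and FE. The p-values below measure the spread between these mice. Libraries held 16188537 to 24392536 reads in 3xTg-AD mice and 20582323 to 30370933 reads in C57BL/6 mice. Haemoglobin genes took 25.4% to 49.96% of reads in 3xTg-AD and 13.4% to 35.2% in C57BL/6 mice, a difference in means of 11.8 percentage points (exact permutation test, two-sided, p = 0.086, adjusted over 3 measures p = 0.13). Genes with a read numbered 12296 to 14283 in 3xTg-AD and 13925 to 14658 in C57BL/6 mice (exact permutation test, two-sided, p = 0.029, adjusted over 3 measures p = 0.086). Mouse FE stood apart, with a median correlation of log2 levels to the other mice of 0.900, against 0.938 to 0.957 for the other 9. All listed markers of neutrophils (16), monocytes (15), B cells (15), T cells (16), NK cells (14) and platelets (16) were read. Keratinocyte genes summed to 2.23 to 46.9 CPM (scaled read counts, defined below) in 3xTg-AD and 12.7 to 30.7 CPM in C57BL/6 mice.

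After prefrontal tDCS, 465 of 14968 autosomal genes differed between the strains at an adjusted p under 0.05 (edgeR's quasi-likelihood test with Benjamini-Hochberg adjustment, as for all adjusted p-values here), which is 3.11% of the genes tested. Of these, 370 genes (2.47%) were higher and 95 genes (0.635%) were lower in 3xTg-AD mice. The median log2 fold change was 2.09 among the higher and -2.90 among the lower genes, against -0.09 over all genes tested, and no gene was called below an absolute log2 fold change of 1.05. Every 3xTg-AD mouse lay above every C57BL/6 mouse in 310 of the 370 higher genes, and below in 93 of the 95 lower ones. Over all genes tested, the groups were apart in that way in 3.67% with 3xTg-AD above and in 3.49% with 3xTg-AD below. Of the calls, 13 had no read in any C57BL/6 mouse, and 4 of these were read in every 3xTg-AD mouse. Another 13 had none in any 3xTg-AD mouse, and all 13 of these were read in every C57BL/6 mouse. The share of such genes among all genes tested was not counted. Protein-coding genes made up 376 of the calls (3.06% of those tested) and pseudogenes 35 (3.6% of those tested).

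The count of calls moved with the haemoglobin share and with single mice. With the log share of haemoglobin reads as a covariate, 96 genes were called, all of them among the 465, and 62 of these (64.6%) were higher in 3xTg-AD mice, against 79.6% without it. With limma voom, 586 of 852 calls (68.8%) were higher. In settings chosen after seeing the data, 698 genes were called without tdcs2, BN and FE, 400 of them among the 465, and 258 were called without tdcs7, FF and BO, 222 of them among the 465. The count ranged from 222 to 670 with 1 mouse left out, and leaving out DT, DS, DR or DU gave 225, 222, 256 or 240. The log2 fold change of all 465 genes kept its sign in each of these settings. These genes were chosen for their difference in the same mice, so the kept signs are no independent evidence.

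The strongest differences were genes read in 1 strain and at or near 0 in the other. CPM are read counts relative to library size after trimmed-mean scaling over the 42 libraries, and values are listed for mice tdcs7, tdcs2, BN, FE, FF and BO and for mice DT, DS, DR and DU, in that order. Npy encodes neuropeptide Y, a peptide transmitter of brain and sympathetic neurons. Its level was 776, 1503, 781, 441, 691 and 382 CPM in the 3xTg-AD mice, and none of the 4 C57BL/6 libraries held a read of it. Against a limit of 3 reads per C57BL/6 library, the level of Npy in 3xTg-AD was at least 8259-fold higher (adjusted p = 3.1e-08). Klk1b22, a secreted serine peptidase of the kallikrein family, was at 81.7, 50.5, 14.6, 130.4, 31.4 and 44.5 CPM and also without a C57BL/6 read, which made it at least 637-fold higher (adjusted p = 1.3e-06). Gm45104, a transcript yet to be verified experimentally, likewise had no C57BL/6 read and was at least 32.8-fold higher, with 3xTg-AD levels of 1.86 to 3.95 CPM. All 6 3xTg-AD mice held reads of these 3 genes.

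Gdpd3, which encodes a lysophospholipase D, had 111, 152, 116, 142, 47.8 and 113 CPM in 3xTg-AD and 0.347, 0, 0.0482 and 0.110 CPM in C57BL/6 mice, a log2 fold change of 9.60 ± 0.70 (SE) (adjusted p = 1.5e-07). Mouse FF had the lowest value of the 6, which was still above every C57BL/6 mouse. Reads of Gdpd3 may be shared with Gm9967, which lies on the opposite strand. Josd2, a deubiquitinase with a Josephin domain, had 306, 193, 228, 356, 305 and 169 CPM against 2.86, 2.97, 6.39 and 4.27 CPM (log2 fold change 5.99 ± 0.44, adjusted p = 1.5e-07). The long non-coding gene 5430431A17Rik, which lies beside Josd2 on chromosome 7, had 32.5, 27.3, 18.2, 32.1, 20.9 and 19.3 CPM against 0.858, 1.17, 1.04 and 1.62 CPM (log2 fold change 4.43 ± 0.36, adjusted p = 6.6e-07). For both genes the groups were far apart and the spread within each group was small.

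Cttnbp2 encodes a cortactin-binding protein known from neurons, where it lies at dendritic spines. It had 33.2, 10.8, 25.1, 35.7, 31.5 and 8.82 CPM in 3xTg-AD and 0.184, 0, 0.145 and 0.0368 CPM in C57BL/6 mice (log2 fold change 7.79 ± 0.68, adjusted p = 1.1e-06). BC018473, annotated as an antisense transcript, had 11.4, 26.3, 1.69, 13.2, 11.4 and 21.1 CPM in 3xTg-AD mice and 1 read over all C57BL/6 libraries, a ratio of 2006 with a 95% counting interval of 360.0 to 79215. Its value in mouse BN was far under the others. Trdc, the constant segment of the T-cell receptor delta chain that marks gamma-delta T cells, had 23.7, 36.1, 17.5, 22.5, 48 and 21.3 CPM against 1.08, 1.92, 0.771 and 0.331 CPM (log2 fold change 4.78 ± 0.49, adjusted p = 1.0e-05). The processed pseudogenes Gm11942, Tdpx-ps1, Gm6768 and Gm17511 completed the 15 higher genes together with Gm10036 and 4930526A20Rik. Gm11942 was the most abundant of them, at 1408 to 12231 CPM in 3xTg-AD and 3.90 to 9.44 CPM in C57BL/6 mice. Each of these 4 shares sequence with a transcribed gene (Gm10073 for Gm11942 and Gm17511, Prdx2 for Tdpx-ps1, Ncoa4 for Gm6768), so which locus the reads came from is uncertain. The strand setting of the counting is not given in the sources used here, so reads of overlapping and antisense genes are uncertain as well.

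**Figure D1:**
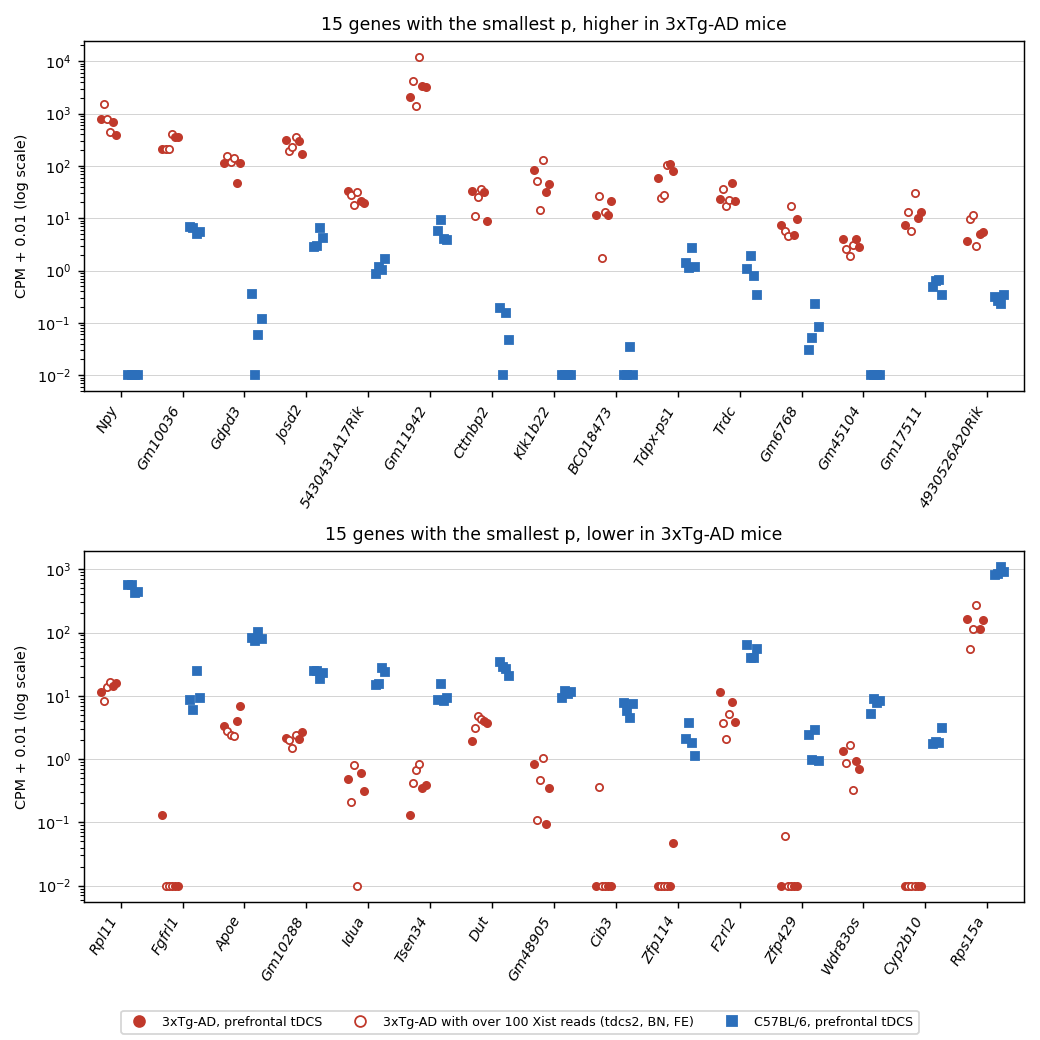
Level of 30 genes, the 15 called higher and the 15 called lower with the smallest p, in each of the 10 mice, in CPM plus 0.01 on a log axis, with circles for the 6 3xTg-AD mice (open for tdcs2, BN and FE, which had over 100 Xist reads) and squares for the 4 C57BL/6 mice. In each of the 30 genes the 2 strains lie apart, as for Npy at 382 to 1503 CPM in 3xTg-AD mice against 0 in C57BL/6 mice. Open and filled circles mix for Npy, but for Apoe the open circles all lie below the filled ones.

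Among the lower genes, Apoe encodes apolipoprotein E, the lipid carrier whose human alleles alter the risk of Alzheimer's disease. Its level was 3.35, 2.72, 2.35, 2.27, 3.93 and 6.92 CPM in 3xTg-AD and 81.9, 72.9, 103 and 80.4 CPM in C57BL/6 mice, a log2 fold change of -4.55 ± 0.35 (adjusted p = 2.1e-07). Mouse BO had the highest level of the 6, far under the lowest C57BL/6 mouse. Fgfrl1, a receptor-like protein that binds fibroblast growth factors, had 1 read over all 6 3xTg-AD libraries and 8.62, 6.06, 24.2 and 9.16 CPM in C57BL/6 mice, a ratio of 1205 with a 95% counting interval of 216 to 47605. Its neighbour on chromosome 5, Idua, encodes the lysosomal enzyme alpha-L-iduronidase. Idua had 0.478, 0.202, 0.784, 0, 0.598 and 0.303 CPM against 14.9, 15.1, 27.4 and 23.6 CPM (log2 fold change -5.62 ± 0.48, adjusted p = 1.0e-06), and its reads may be shared with Slc26a1 on the opposite strand.

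Dut encodes the dUTP pyrophosphatase that keeps uracil out of DNA, and it had 1.91, 3.08, 4.83, 4.33, 4.01 and 3.67 CPM in 3xTg-AD and 34.6, 28.7, 26.9 and 20.5 CPM in C57BL/6 mice (log2 fold change -2.91 ± 0.30, adjusted p = 1.1e-05). F2rl2 encodes the thrombin receptor PAR3 of mouse platelets, with 11.4, 3.73, 2.06, 5.05, 8.11 and 3.86 CPM against 63.1, 39.6, 39.2 and 54.1 CPM (log2 fold change -3.11 ± 0.40, adjusted p = 1.2e-04). For both, the strains did not overlap, and both were read in every 3xTg-AD mouse. F2rl2 lies within Iqgap2, on the opposite strand. Cyp2b10, a drug-metabolizing cytochrome P450 best known from liver, had no read in any 3xTg-AD library and 1.70, 1.84, 1.81 and 3.13 CPM in C57BL/6 mice, at least 9.68-fold lower. Cib3, a calcium-binding protein, was read only in tdcs2 among the 3xTg-AD mice, at 0.353 CPM, against 4.41 to 7.66 CPM. The zinc finger genes Zfp114 and Zfp429 each had 1 read in the 3xTg-AD group, against 1.10 to 3.76 and 0.920 to 2.89 CPM, and Zfp429 shares words with Rsl1. Wdr83os, a membrane protein of the endoplasmic reticulum, and the non-coding Gm48905 had log2 fold changes of -2.93 ± 0.41 and -4.61 ± 0.50. Gm48905 lies within Eipr1 on the same strand, so its reads are uncertain.

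In 4 cases a gene fell and a near copy of it elsewhere in the genome rose in the same mice. Rpl11, which encodes a protein of the large ribosomal subunit, had 11.4, 8.17, 13.6, 16.3, 14.3 and 16 CPM in 3xTg-AD and 557, 557, 420.3 and 438 CPM in C57BL/6 mice (log2 fold change -5.21 ± 0.32, adjusted p = 3.1e-08). Its processed pseudogene Gm10036 had 211, 207, 214, 415, 359.7 and 351 CPM against 6.82, 6.60, 4.96 and 5.34 CPM (log2 fold change 5.63 ± 0.40, adjusted p = 1.5e-07). Both together summed to 215 to 431 CPM (median 297) in 3xTg-AD and 425 to 564 CPM (median 503) in C57BL/6 mice. The ranges of the sums thus met at their ends, with the lower median in 3xTg-AD mice, while each member alone was far apart. The sums of Tsen34 and its copy, below, overlapped too, at 3.71 to 12.3 against 8.46 to 15.8 CPM (medians 5.62 and 9.32). Those of Rps15a and its copy did not, at 151 to 742 against 847 to 1113 CPM. Another Rpl11 pseudogene, Gm10288, went with the gene, at 1.49 to 2.69 CPM in 3xTg-AD and 18.2 to 24.8 CPM in C57BL/6 mice. Of the 31-base words of their transcripts, 76.6% (Gm10036) and 93.9% (Gm10288) also occur in Rpl11.

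Tsen34, a subunit of the tRNA splicing endonuclease, had 0.120, 0.403, 0.660, 0.825, 0.342 and 0.378 CPM against 8.68, 15.6, 8.24 and 9.31 CPM (log2 fold change -4.48 ± 0.42, adjusted p = 2.8e-06). Its transcribed pseudogene 4930526A20Rik had 3.71, 9.68, 11.6, 2.89, 5.04 and 5.49 CPM against 0.306, 0.251, 0.217 and 0.331 CPM (log2 fold change 4.52 ± 0.51, adjusted p = 3.0e-05). Rps15a, which encodes a protein of the small ribosomal subunit, had 162, 55.6, 113, 271, 115 and 155 CPM against 811, 825, 1079 and 918 CPM (log2 fold change -2.63 ± 0.38, adjusted p = 4.1e-04). Its pseudogene Rps15a-ps6 had 171, 95.7, 141, 471, 197 and 227 CPM against 36.4, 29.2, 34.1 and 52.5 CPM (log2 fold change 2.53 ± 0.43, adjusted p = 0.0021). The RNA-binding protein gene Rbmxl1 (log2 fold change -2.72 ± 0.71, adjusted p = 0.045) and its copy Gm7324 (log2 fold change 3.91 ± 0.72, adjusted p = 0.0042) moved apart likewise. Tsen34 overlaps Mboat7 on the opposite strand, and Rps15a-ps6 lies within Nudcd3 on the same strand. Rps15a-ps6, Rbmxl1 and Gm7324 were chosen after their values were seen. In each of the 4 pairs, every 3xTg-AD mouse had less of the gene and more of the copy than every C57BL/6 mouse. Without tdcs7, FF and BO, Rbmxl1 alone of the 8 was not called (adjusted p = 0.15), and with the haemoglobin share as a covariate Rbmxl1 and Gm7324 were not (adjusted p = 0.34 and 0.058). The Rbmxl1 call was also lost when tdcs7, tdcs2, FF or any 1 C57BL/6 mouse was left out.

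A coding stretch of 60 bases from Rps15a and from Tsen34 is set beside the like stretch of each copy in the mouse reference genome (GRCm38, GENCODE M21). The stretches were picked among those with at most 5 differing bases, so they do not measure how alike the whole transcripts are. Whether reads fell in these stretches was not tested. The bases that differ are in capitals, 2 in the first pair and 5 in the second.
Rps15a, minus strand, chr7:118114805-118114864: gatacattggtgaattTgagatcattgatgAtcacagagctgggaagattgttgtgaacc
Rps15a-ps6, minus strand, chr11:6172844-6172903: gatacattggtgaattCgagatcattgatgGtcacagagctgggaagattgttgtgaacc
Tsen34, plus strand, chr7:3695094-3695153: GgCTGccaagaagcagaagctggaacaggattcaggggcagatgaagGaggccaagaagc
4930526A20Rik, minus strand, chr17:28075938-28075997: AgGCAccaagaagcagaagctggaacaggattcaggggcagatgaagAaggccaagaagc
Reads were placed on a reference of the C57BL/6 strain, and whether a read of a pair belongs to the gene or the copy rests on such bases, so the split between them is uncertain. Near copies, with at least 20% of words shared, were 39 of the 465 called genes (8.39%) and 7.19% of all genes tested.

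**Figure D2:**
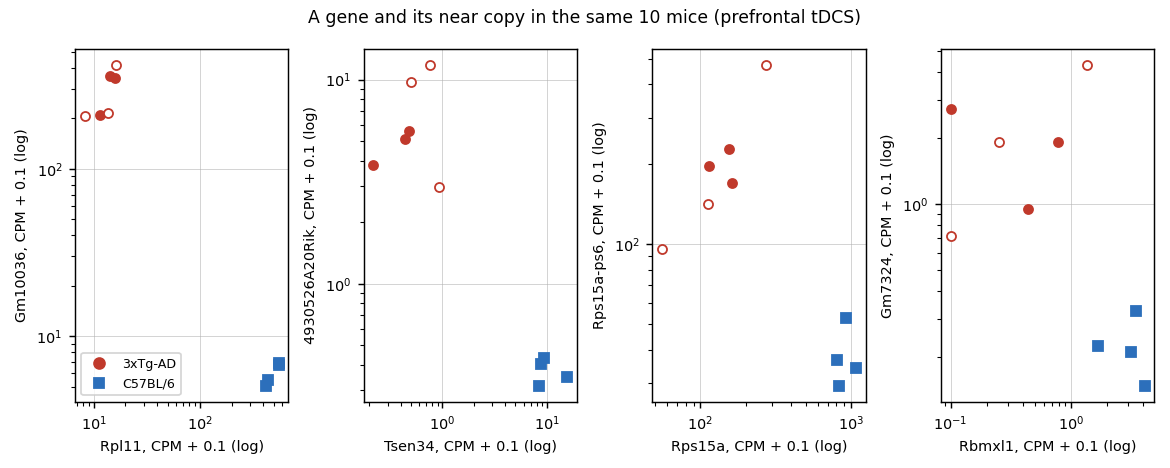
Level of a near copy (vertical axis) against that of its gene (horizontal axis), both in CPM plus 0.1 on log axes, for 4 pairs, with circles for the 6 3xTg-AD mice (open for tdcs2, BN and FE) and squares for the 4 C57BL/6 mice. In each panel the 3xTg-AD mice sit at upper left and the C57BL/6 mice at lower right, as for Rpl11 at 8.17 to 16.3 CPM against 420.3 to 557 CPM.

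Of 16 neutrophil genes, 7 were higher in 3xTg-AD mice and none was lower, against 2.47% higher and 0.635% lower over all genes tested, and all 16 had a positive log2 fold change, with a median of 1.82. The largest differences lay in the proteins of the secondary granules. Ngp, the neutrophilic granule protein, had 580.5, 205, 75.6, 130.5, 379 and 108 CPM in 3xTg-AD and 4.47, 2.34, 1.76 and 9.20 CPM in C57BL/6 mice (log2 fold change 5.80 ± 0.71, adjusted p = 8.2e-05). Camp, the cathelicidin, had 181, 80.0, 20.9, 50.4, 177 and 64.6 CPM against 2.57, 2.13, 0.386 and 2.06 CPM (log2 fold change 5.75 ± 0.69, adjusted p = 6.7e-05). Ltf, lactoferrin, had 170.4, 47, 17.1, 14, 82.2 and 23.2 CPM against 1.39, 0.752, 0.361 and 0.662 CPM (log2 fold change 6.21 ± 0.78, adjusted p = 1.1e-04). In all 3 genes the strains did not overlap, and tdcs7 and FF were the highest mice, neither of which is among the 3 with over 100 Xist reads. Lcn2 (lipocalin 2) and Mmp8 (neutrophil collagenase) also lay apart, with log2 fold changes of 2.77 ± 0.51 and 2.24 ± 0.50. S100a8 and Ly6g were called with overlapping groups, at 1086 to 5783 against 536 to 1177 CPM and 6.02 to 49 against 3.08 to 6.21 CPM. The receptors of mature neutrophils Csf3r and Cxcr2 did not pass the test, with log2 fold changes of 0.52 ± 0.51 and 0.62 ± 0.49, which were -0.66 and -0.37 without tdcs2, BN and FE. With the haemoglobin share as a covariate Ngp, Camp and Ltf remained called and the other 4 did not, while the median of the list was 1.84. S100a8 was not called when tdcs7, tdcs2, FF or any 1 C57BL/6 mouse was left out.

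Erythroid genes leaned the same way, beside the haemoglobin share given above. All 9 haemoglobin genes had a positive log2 fold change, with a median of 1.94, and the theta-like Hbq1a and Hbq1b were the ones called. Over all genes tested, 6837 of 14968 had a positive log2 fold change and 2.47% were called higher. Hbq1a had 601, 917, 503, 993, 299 and 526 CPM against 163, 192, 95.9 and 194 CPM (log2 fold change 1.99 ± 0.39, adjusted p = 0.0068). Hbq1a and Hbq1b lie near each other and are alike, so the split of their reads is uncertain. The major alpha genes Hba-a1 and Hba-a2 did not pass (adjusted p = 0.085 and 0.081), and globin transcripts were depleted by the authors before sequencing. Of 17 genes of the red cell membrane, 3 were higher, namely Sptb (beta spectrin), Ermap and Tspo2, and the median was 1.47. Of 18 genes of haem synthesis and iron handling, 3 were higher, among them the haem enzyme Alad and the ferritin light chain Ftl1, with a median of 1.13. Ftl1 shares words with Ftl1-ps1. Klf1, the master transcription factor of red cell precursors, had 17.3, 7.46, 6.40, 13.5, 14.9 and 4.16 CPM against 1.25, 1.46, 1.45 and 2.21 CPM (log2 fold change 2.74 ± 0.44, adjusted p = 0.0014), and Bcl2l1, a survival factor of these cells, was higher too. These were 2 of 14 erythroid regulators, whose median was 0.72. Tspo2, Bcl2l1, Alad and Ftl1 were not called when any 1 C57BL/6 mouse was left out. None of these 10 erythroid calls remained with the haemoglobin share as a covariate. That share is itself made of haemoglobin reads and leaned higher in 3xTg-AD mice, so the loss of erythroid calls cannot tell what underlies them. The medians of the 4 lists stayed above 0, at 1.28, 1.03, 0.90 and 0.68 in the order given. Without tdcs2, BN and FE the calls were 4 haemoglobin genes, 10 membrane genes, 3 haem and iron genes and 5 regulators.

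Lymphocyte lists lay mostly below 0. All 15 B-cell genes had a negative log2 fold change, with a median of -1.44, and 9 of them lay below every C57BL/6 mouse in every 3xTg-AD mouse, but Fcer2a, the low-affinity IgE receptor, was the one called. Over all genes tested, 3.49% lay below in that way and 0.635% were called lower. Fcer2a had 2.63, 1.71, 8.87, 1.13, 4.87 and 9.69 CPM against 18.8, 29.7, 24.8 and 14.2 CPM (log2 fold change -2.16 ± 0.48, adjusted p = 0.016). The summed B-cell level was 142 to 1042 CPM in 3xTg-AD and 1211 to 1896 CPM in C57BL/6 mice, with FE the lowest. All 11 MHC class II genes were negative as well, with a median of -1.24 and a smallest adjusted p of 0.077. Of 14 NK cell genes, 13 were negative, with a median of -1.1, and Klrk1, the activating receptor NKG2D, was called at 0.359 to 2.35 against 3.59 to 6.48 CPM. T-cell genes (median -0.58), monocyte genes (median -0.22) and platelet genes (median 0.09) had no call among 16, 15 and 16 members. With 3.11% of all genes tested called, lists this short can hold no call. Without tdcs2, BN and FE the NK median was -1.83 with 5 genes lower, the B-cell median was -1.04 with 2 lower, 1 MHC class II gene was lower, 1 monocyte gene was higher and the platelet median was 0.30. Among 9 Klra (Ly49) receptor genes of NK cells, Klra17 was higher at 11.2, 14.9, 10.7, 13.1, 6.58 and 2.72 CPM in 3xTg-AD mice, above every C57BL/6 mouse (C57BL/6 median 0.849 CPM). Klra3 had no read in any 3xTg-AD mouse against 0.478 to 1.30 CPM in C57BL/6 mice, at least 4.67-fold lower. This family is repeated and differs in gene number between strains, so reads of its members are uncertain.

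**Figure D3:**
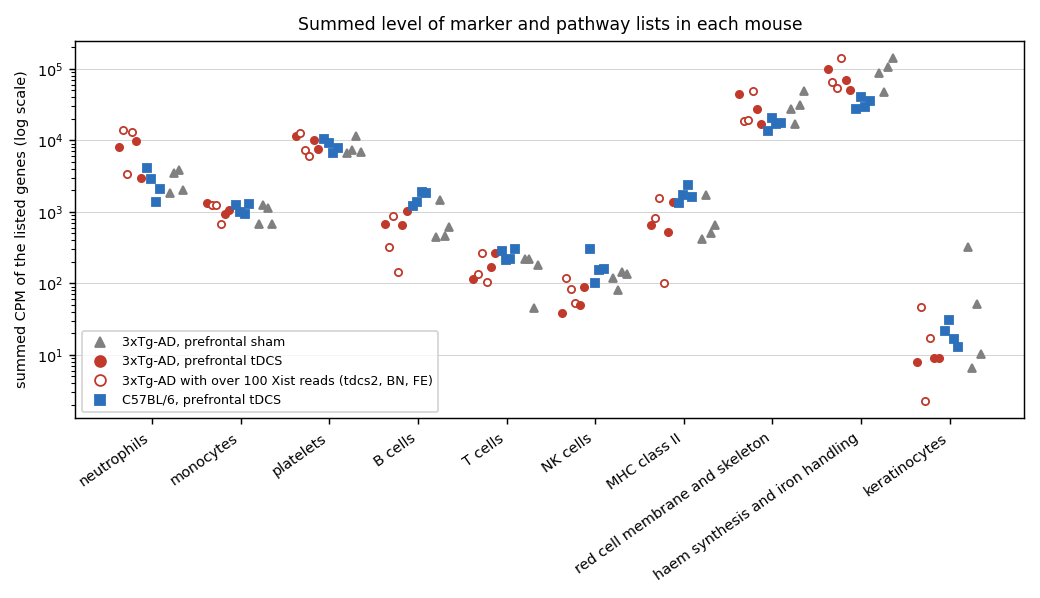
Summed CPM of the listed genes in each mouse on a log axis, with circles for stimulated 3xTg-AD mice (open for tdcs2, BN and FE), squares for stimulated C57BL/6 mice and triangles for the 4 3xTg-AD mice under prefrontal sham. Neutrophil sums of 2937 to 14123 CPM in stimulated 3xTg-AD mice overlap those of C57BL/6 mice (1374 to 4045 CPM). They also overlap those of sham 3xTg-AD mice (1822 to 3800 CPM). B-cell sums of the stimulated strains do not overlap.

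Interferon-stimulated genes were mostly at or below 0, with 2 of 20 lower, none higher and a median of -0.54. Over all genes tested, 0.635% were called lower. Without tdcs2, BN and FE, 5 were lower and the median was -0.94. The summed level of the list leaned the other way, with medians of 13524 CPM in 3xTg-AD and 8025 CPM in C57BL/6 mice and overlapping ranges of 6598 to 26101 and 6199 to 13973 CPM. Irf7, the factor that amplifies type I interferon, had 21, 26.4, 13.7, 7.43, 14.2 and 23.2 CPM against 62.9, 69.3, 87.3 and 85.3 CPM (log2 fold change -2.11 ± 0.32, adjusted p = 8.2e-04). Oasl2, an antiviral protein of the oligoadenylate synthetase family, had 0.598, 12.6, 2.64, 0.619, 0.854 and 0.492 CPM against 21.9, 14.3, 31.6 and 21.6 CPM, with tdcs2 the highest of the 6. It was not called when tdcs7, FF, DT, DR or DU was left out. Isg15, a ubiquitin-like protein, did not pass (log2 fold change -1.41 ± 0.43, adjusted p = 0.084). No gene was called among 16 genes of MHC class I and antigen processing (median -0.47), 12 immediate early genes (median 0.37) and 12 glucocorticoid-responsive genes (median 0.13). Lists this short can hold no call where 3.11% of all genes tested were called. Without tdcs2, BN and FE, 2 genes of the MHC class I list were lower and its median was -0.78, and the other 2 lists still had no call, with medians of 0.13 and 0.08. Of 17 genes of DNA replication and the cell cycle, Mki67 was higher and Dut was lower. Mki67, the proliferation marker Ki-67, had 88.3, 49.9, 57.9, 293, 164 and 71.5 CPM against 14.7, 10.5, 17.8 and 15.3 CPM (log2 fold change 3.07 ± 0.50, adjusted p = 0.0014).

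App, the mouse counterpart of the human APP transgene, did not pass the test. It had 30.1, 71.1, 36.5, 22.4, 35.4 and 19.8 CPM against 32.8, 27.2, 21.1 and 21.8 CPM (log2 fold change 0.48 ± 0.34, adjusted p = 0.48). The counts do not separate human transgene reads from mouse reads. Of 18 genes of amyloid processing and Alzheimer risk, Apoe was the one called, and the median of the list was -0.14. Over all genes tested, 2.47% were called higher and 0.635% lower, and the median was -0.09. Keratinocyte genes gave 1 call in each direction, Krt15 and Sfn, and Krt15 was at 0 in tdcs7, BN and the 4 C57BL/6 mice and at 27.9 CPM in tdcs2.

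Lists that the study drew from strain comparisons of sham mice of this series were followed as well, and are no independent evidence of direction. Over all genes tested, 2.47% were called higher and 0.635% lower, with a median log2 fold change of -0.09. Of 9 coagulation genes, Apoe, F2rl2 and Serpine2, an inhibitor of thrombin, were lower and Dmtn, a red cell skeleton protein, was higher, with a median of -0.37. Of 10 selective autophagy genes, Becn1 (beclin 1) and the kinase Mapk3 were higher, with a median of 1.09. Of 20 peptidase inhibition genes, 7 were higher and none lower, with a median of 1.22. They were Ngp, Ltf, Birc5, Wfdc3, Bcl2l1, Dnajb6 and Wfdc21. Ngp and Ltf are the granule genes described above and Birc5 is survivin, which acts in cell division. All 16 of the genes with the strongest strain difference in sham mice were called here, 9 higher and 7 lower, and they had been chosen for a strain difference in mice of the same colonies.

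The genes that the study linked to tDCS in 3xTg-AD mice were chosen partly on the 6 stimulated 3xTg-AD mice used here, so their level is not independent of that choice. Of 23, 6 were higher than in C57BL/6 mice and none was lower, against 2.47% higher and 0.635% lower over all genes tested. The median of the list was 0.61. Mical3, a monooxygenase that acts on actin and vesicle traffic, had 10.6, 12.9, 9.70, 27.2, 12.2 and 10.5 CPM against 1.72, 0.961, 1.25 and 1.88 CPM (log2 fold change 3.25 ± 0.40, adjusted p = 8.4e-05). Crat, the carnitine acetyltransferase of mitochondria, had 100.2, 55.2, 47, 107, 99.2 and 63 CPM against 17.5, 21.2, 16.6 and 12.5 CPM (log2 fold change 2.22 ± 0.34, adjusted p = 8.5e-04). Rnf123, Ybx3, Ago2 and Ogdh were higher with log2 fold changes of 2.81 ± 0.44, 2.18 ± 0.39, 1.72 ± 0.32 and 1.42 ± 0.29. In all 6 genes every 3xTg-AD mouse lay above every C57BL/6 mouse. Higher here means a difference between strains, not a rise with tDCS. The study reported these genes as lowered by tDCS in transgenic mice and as already differing between strains under sham. It described Crat, Ybx3 and Ago2 after tDCS as comparable to wild-type sham mice, a comparison not made here. Summed over the 23 genes, medians were 42552 CPM in prefrontal sham 3xTg-AD, 23634 in stimulated 3xTg-AD and 14812 in stimulated C57BL/6 mice. All ranges overlapped. The study's tDCS genes included raised as well as lowered ones, and Pabpc1, a lowered gene, had by far the highest mean count among them. A sum thus weights the abundant genes and does not give the direction of the list as a whole. With the haemoglobin share as a covariate, Mical3 and Crat remained called.

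By position, the share of tested genes called ran from 1.99% on chromosome 3 to 4.72% on chromosome 13, and chromosome 7 held the most calls, 49 of 1179 genes. Of 857 windows of 2 Mb with at least 5 genes tested, 565 held no call, 199 held 1 and 11 held 4 or more. The largest count was 7 of 39 genes, on chromosome 11 from 82000001 to 84000000. Of its Schlafen genes, known from blood cell growth and antiviral defence, Slfn5 (-1.86 ± 0.37) and Slfn8 (-2.48 ± 0.56) were lower and Slfn14 (1.51 ± 0.39) was higher (log2 fold changes ± SE). The chemokine Ccl5 was lower there, at 23.1, 59.7, 41.9, 9.70, 20.8 and 38.5 CPM against 166, 62.5, 145 and 166 CPM, and the non-coding AA465934, Gm11427 and the secreted Wfdc21 were higher. AA465934 had the largest log2 fold change of the window, 5.07 ± 0.58.

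Each of 4 further windows held 6 calls. On chromosome 6 from 128000001 to 130000000, 6 of 36 genes of the NK receptor region were called, of which Klrb1a, Clec2i, Klrk1, Klrc1 and the pseudogene BC064078 were lower and Klra17 was higher. Klrc1, the inhibitory receptor NKG2A, had 0.303 to 2.68 CPM in 3xTg-AD and 5.68 to 20.8 CPM in C57BL/6 mice. On chromosome 15 from 76000001 to 78000000, Apol10a, Apol11a, Apol11b and Gm8221 of the apolipoprotein L cluster were higher together with Txn2, the mitochondrial thioredoxin, and Zfp647 was lower. Apol11b was among the abundant genes of the blood, at 13294 to 35395 CPM in 3xTg-AD and 4684 to 8056 CPM in C57BL/6 mice, and reads of Apol11a and Apol11b may be shared. On chromosome 7 from 24000001 to 26000000, the neutrophil surface gene Cd177, Ceacam10, Lypd5 and Hnrnpul1 were higher and Zfp114 and Cyp2b10 were lower. On chromosome 7 from 44000001 to 46000000, Klk1b22, Josd2, 5430431A17Rik and Ftl1 were higher, and Pold1, the catalytic subunit of DNA polymerase delta, and Gm31597 were lower. Calls in both directions thus stood side by side in all 5 windows.

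**Figure D4:**
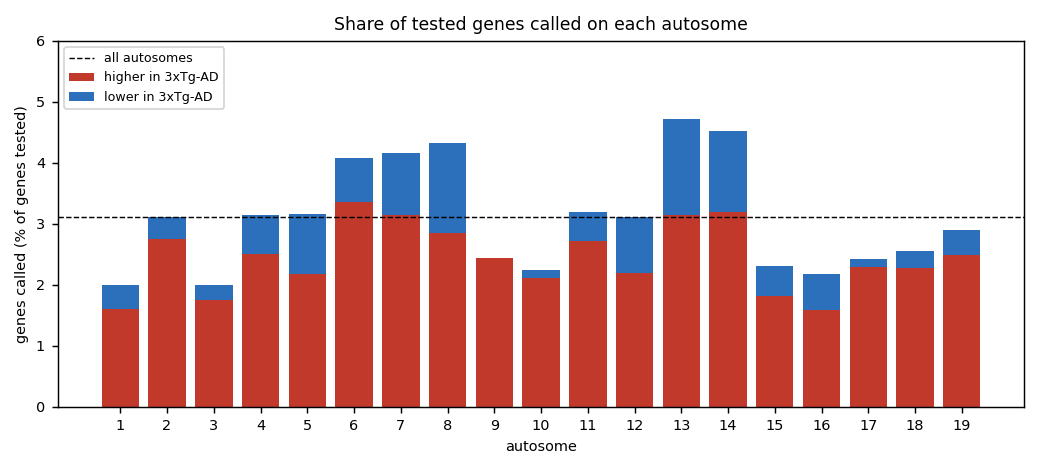
Share of tested genes called on each autosome in percent, higher in 3xTg-AD mice in red and lower in blue, with the share over all autosomes (3.11%) as a dashed line. Calls lie on all 19 autosomes and higher genes prevail on each, with shares from 1.99% on chromosome 3 to 4.72% on chromosome 13.

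The same strains were compared in 3 further sets of mice that share no mouse with the prefrontal set, though they come from the same colonies. After hippocampal tDCS at 6 months (8 3xTg-AD and 3 C57BL/6 mice), 211 of 15072 genes were called (1.4%). Under hippocampal sham at 6 months (5 and 6 mice) the count was 1187 of 15077 (7.87%), and under hippocampal sham at 3 months (3 and 3 mice) it was 58 of 15013 (0.386%). Of the 465 prefrontal calls, 113 were also called after hippocampal tDCS, which is 24.3% of the prefrontal and 53.6% of the hippocampal calls. The overlap was 295 with sham at 6 months (63.4% and 24.9%) and 39 with sham at 3 months (8.39% and 67.2%). All shared calls had the same direction. Of the 465 genes, 94.0% had the same sign after hippocampal tDCS, 94.0% under sham at 6 months and 88.8% under sham at 3 months, against 57.5%, 63.1% and 54.9% of all genes tested.

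In all 4 sets, 34 genes were called, 19 of them higher and 15 lower in 3xTg-AD mice. They included Npy, Gdpd3, Josd2, 5430431A17Rik, Gm11942, Cttnbp2, Klk1b22, BC018473, Trdc and Camp among the higher and Fgfrl1, Idua, Tsen34, Dut, Cib3, F2rl2, Rps15a and Serpine2 among the lower genes. The level of Npy in 3xTg-AD mice was not the same in each set. It was 382 to 1503 CPM after prefrontal tDCS and 432 to 932 CPM under prefrontal sham, but 0.156 to 285 CPM after hippocampal tDCS and 0 to 387 CPM under hippocampal sham at the same age. Stimulated 3xTg-AD mice thus did not overlap in Npy between the sites, and sham 3xTg-AD mice of that age did not either. No stimulated C57BL/6 mouse held a read of Npy. The interaction of strain and site, fitted for Npy as for the other genes below, therefore has no dependable size for it. Klk1b22 in contrast had 14.6 to 130.4, 54.1 to 94, 21.7 to 59.3 and 25.7 to 79.6 CPM in these 4 groups, which overlapped. Apoe stayed within 2.27 to 6.92 CPM after prefrontal tDCS, 2.44 to 15.7 CPM under prefrontal sham and 3.31 to 11 CPM after hippocampal tDCS in 3xTg-AD mice. Ngp, Camp and Ltf in turn had 31 to 211, 12 to 83.7 and 9.59 to 58.4 CPM in the 4 prefrontal sham 3xTg-AD mice, each range overlapping that of the stimulated 3xTg-AD mice and above that of the stimulated C57BL/6 mice. The whole neutrophil list differed from these genes, with summed levels of 1822 to 3800 CPM (median 2772) in the sham mice. Its medians were 8980 CPM in stimulated 3xTg-AD and 2481 CPM in stimulated C57BL/6 mice.

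**Figure D5:**
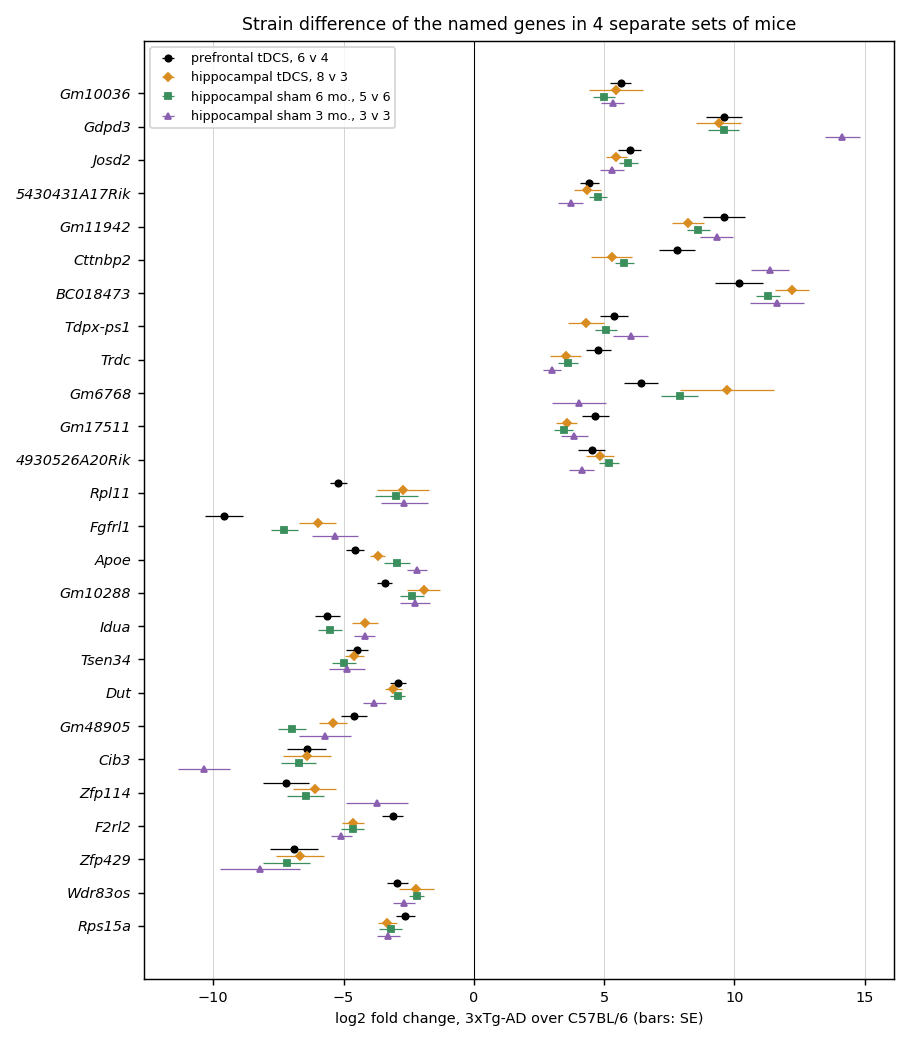
Log2 fold change of 3xTg-AD over C57BL/6 mice (bars, SE) in 4 sets of mice for those of the 15 higher and 15 lower genes with a read in both strains after prefrontal tDCS. All 26 genes keep the side of 0 that they have after prefrontal tDCS, as Josd2 with 5.99, 5.47, 5.93 and 5.29.

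Of the 465 prefrontal calls, 164 were called in none of the other 3 sets, and 63 of these had an unadjusted p under 0.05 in none of them either. A call in 1 set and not in another does not show that the strain difference depends on the site, and the sites also differed in schedule, with more sessions over a longer time at the prefrontal site. The difference between sites was therefore tested as an interaction of strain and site in the 21 stimulated mice. No gene passed (0 of 15077, 0.0%), 1351 genes had an unadjusted p under 0.05, and DESeq2's likelihood ratio test called 14 genes. The 5 genes with the smallest p were Adtrp, Serping1, Ly6g6c, Gm15446 and Ccdc61, all at an adjusted p of 0.50. Adtrp, a hydrolase of lipid metabolism, was at 0.103 to 1.20 CPM in 3xTg-AD and at or under 0.0409 CPM in C57BL/6 mice after prefrontal tDCS. Serping1 encodes the C1 inhibitor of complement and had 0 to 2.06 CPM against at most 0.0204 CPM, with tdcs7 at 0. Ccdc61, a centrosomal protein, had no read in prefrontal 3xTg-AD mice and 0.511 to 1.18 CPM in C57BL/6 mice, at least 3.69-fold lower, and its log2 fold change after hippocampal tDCS was 0.05. Ly6g6c, a surface protein of the Ly6 family whose gene overlaps Mpig6b on the opposite strand, had a log2 fold change of 0.08 ± 0.34 after prefrontal and -1.88 after hippocampal tDCS. Adtrp and Serping1 had 2 reads and 1 read in the 4 C57BL/6 libraries together, so their folds rest on few reads.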

How the data were processed

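Whole-blood RNA of 42 mice was depleted of alpha and beta globin by the authors and sequenced from the 3′ end (QuantSeq, Ion Torrent). Per the labels and the study's methods, the authors trimmed reads with cutadapt 1.14, aligned them with STAR 2.6 to mm10 and deposited a table of raw counts per gene, already filtered on low counts. The counts of all genes, left out only where no mouse of a comparison held a read, were tested with edgeR 4.0.16 (TMM, quasi-likelihood F test, threshold 0.05). Scaling and Benjamini-Hochberg adjustment took in genes of the X, Y and mitochondrial chromosomes, which were dropped afterwards. Counts and shares of genes tested or called refer to the autosomal genes. The RNA integrity number, a covariate of the study's model, is in no label used here. Library measures were compared by an exact permutation test. DESeq2 1.42.0 and limma 3.58.1 served as alternatives. Named genes were the 15 called genes with the smallest p in each direction, the listed genes, the 5 genes with the smallest interaction p and the called genes of the windows of 2 Mb with the most calls. Members and lists were chosen with earlier results of these data known. Counts of 0 were given a limit of 3 reads per library, and intervals cover counting error only. Values of some genes on the lists are not reported here.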

Additional observations from a re-analysis of the deposited data

Results flagged for a closer look

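Among 203 groups of values of the named genes and library measures, 10 held a mouse far from the others of its group, where chance gives about 1 in 20. In 3xTg-AD mice, Gdpd3 was at 47.8 CPM in FF (others 111 to 152), BC018473 at 1.69 CPM in BN (others 11.4 to 26.3) and Mical3 at 27.2 CPM in FE (others 9.7 to 12.9). Mouse tdcs7 stood high for Apol11a, at 201.0 CPM (others 64.5 to 95.2), and for Hba-a1, at 497000 CPM (others 85600 to 163000). In C57BL/6 mice, Camp was at 0.386 CPM in DR (others 2.06 to 2.57) and Ccl5 at 62.5 CPM in DS (others 145 to 166). Mouse DU stood apart for Cyp2b10 at 3.13 CPM (others 1.7 to 1.84), for Ogdh at 26.3 CPM (others 37.5 to 39.3) and for Lypd5 at 1.25 CPM (others 0.0613 to 0.167).

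Outside the autosomal comparison, Xist had over 100 reads in 3 of the 6 stimulated prefrontal 3xTg-AD mice, which the study's methods describe as male, with 394 reads in tdcs2, 230 in BN and 128 in FE. It also had 578, 416 and 265 reads in the prefrontal sham 3xTg-AD mice FA, FC and FD, and at most 8 in every other mouse of the series. The part of this in the results was not tested beyond leaving these mice out.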

How the results depend on the processing

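The count of genes called after prefrontal tDCS (465) was 1037 with DESeq2, 852 with limma voom, 743 with the 21 stimulated mice in one fit, 931 with all 42 mice and 96 with the haemoglobin share as a covariate. In settings chosen after seeing the data it was 698 without tdcs2, BN and FE, 227 with the haemoglobin covariate added to that, and 258 without tdcs7, FF and BO. With 1 mouse left out it ranged from 222 to 670. After hippocampal tDCS (211) it was 557 with DESeq2 and 57 to 235 with 1 mouse left out, under sham at 6 months (1187) 759 to 1218, and under sham at 3 months (58) 473 with DESeq2 and 18 to 637. The interaction (0) gave 14 with DESeq2 and 0 to 1 with 1 mouse left out. Of 107 genes followed, 98 were called, and 41 of these were called in every setting run. The haemoglobin covariate ended the call of 56 of the 98. Uncalled genes changed sign. Ly6g6c ranged from -0.0998 to 0.23 with 1 mouse left out and was -0.12 with the haemoglobin covariate, -0.25 without tdcs7 and tdcs2, and -0.14 without tdcs2, BN and FE with the covariate. Csf3r ranged from -0.048 to 0.83 with 1 mouse left out and was -0.66 and -0.59 without tdcs2, BN and FE, without and with the covariate, and Cxcr2 was -0.37 without them. The cause was not tested. No paired analysis was possible because the titles carry no shared replicate numbers. Depth limits genes near 1 read, where a count of 0 allows up to 3 reads per library.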
